A study of Mus musculus with 12 samples.

Results

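The serpin protease inhibitor genes were described in whole mouse skin, uninjured or 14 days after injury, with and without loss of Nf1 in one cell lineage. Of the 53379 gene identifiers in each count table, 61 were protein-coding genes whose GENCODE M21 symbol is Serpin followed by a clade letter from a to i and a number. The 60 of them with 10 or more counts summed over the 12 libraries are the members described here. The gene below that minimum, Serpina1c, had 3 counts. By clade, the members were 23 of clade A (of 24 symbols), 26 of B, 1 of C, 1 of D, 3 of E, 2 of F, 1 of G, 1 of H and 2 of I. The members were chosen by name and annotation, not by their values.

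Serpins are folded around a flexible reactive centre loop that serves as bait: a target protease cuts the loop, and the serpin then snaps shut and traps the protease in an inactive covalent complex, which cell surface receptors such as LRP1 clear. Clade A genes mostly encode secreted inhibitors of the antitrypsin and antichymotrypsin type, and clade B genes encode inhibitors that mostly stay inside cells, where keratinocytes and leukocytes carry many of them. Clades C to G and I hold regulators of clotting, plasmin and complement, and some members inhibit nothing: Serpinh1 is a collagen chaperone of the endoplasmic reticulum, Serpinf1 is a secreted anti-angiogenic factor and Serpinb5 (maspin) is an epithelial protein without known protease targets.

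The study compared 4 groups of 3 libraries each, from mice labelled as 3 months old and of strain C57BL/6 & B6D2. Control skin had the genotype Prss56Cre,R26tdTom, and Nf1-KO skin had Prss56Cre,R26tdTom,Nf1flox/-. Both genotypes therefore carry the Prss56-driven Cre and the tdTomato reporter. The flox allele can be lost only in the lineage that expressed Cre, which per the series title derives from boundary cap cells, whereas the null allele is present in every cell of Nf1-KO skin. Nf1 RNA, the check of the targeted gene, was not called between genotypes: it averaged 11.8 ± 2.54 CPM (SD, n = 3) in control and 9.499 ± 0.505 in Nf1-KO skin before injury, and 12.7 ± 3.61 and 11.7 ± 3.67 after it (adjusted p = 0.884 and 0.989 for genotype). CPM are a gene's counts relative to the TMM-scaled size of its library. The labels number the libraries of a group 1 to 3 but do not say that they come from separate animals, so the p-values measure the spread between these libraries, which may be technical.

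Several features of the libraries moved with injury. Totals ran from 8817013 to 15521143 counts in uninjured and from 12681653 to 16809687 in injured libraries. Xist was at 0.709 to 2.95 raw CPM in the 6 uninjured and 436 to 627 in the 6 injured libraries, and Ddx3y, from the Y chromosome, at 68.2 to 93.3 and 0 to 0.0595, so injury and the sex of the animals cannot be told apart. Olfactory and vomeronasal receptor genes, which skin hardly uses, summed to 0.0937 to 0.329 CPM per kilobase of exon in uninjured and 0.00225 to 0.0532 in injured libraries, a background that touches members of low level. Ribosomal RNA-like genes took 2.08 to 5.60% of counts in uninjured and 4.10 to 11.9% in injured libraries. All 14 matched hair follicle markers, of 15 listed, rose with injury in both genotypes, from summed levels of 56.2 to 149.5 CPM to 11180 to 34140 CPM. In RNA from whole skin, fewer cells of a type and less RNA per cell cannot be told apart.

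Injury moved serpin genes in both directions. Serpinb7, Serpinb2, Serpinb5, Serpinb8 and Serpina12, which keratinocytes make, fell in both genotypes, while the collagen chaperone Serpinh1, the secreted factor Serpinf1, the acute-phase inhibitor Serpina3n, the C1 inhibitor Serping1 and the elastase inhibitor Serpinb1a rose in both. Of the 60 members, 45 passed the filter on low counts and were tested. In control skin 14 were higher and 13 lower after injury (edgeR quasi-likelihood test, adjusted p under 0.05 over 23635 genes). Over all genes tested, 22.8% were called higher and 32.5% lower, and the median log2 fold change was -0.21 against 0.32 for the tested members. In Nf1-KO skin 14 were higher and 12 lower, beside 19.1% and 18.4% of all genes, with a median of 0.38 for the members and -0.09 for all genes. These shares of members, about 31% higher and 27 to 29% lower, lie near the background in control skin and somewhat above it in Nf1-KO skin. The injury comparisons of the 2 genotypes share no library, but they share an estimate of the spread. Of the members, 12 were called higher in both, 10 lower in both, 5 called in control skin alone, 4 in Nf1-KO skin alone, and 0 in opposite directions. The same counts were not made over all genes, so nothing particular to serpins is read from them. The filter let 8 tested members pass through the uninjured libraries alone and 3 through the injured alone, so the filter favoured a difference in these 11, and the counts above support nothing about the family as a whole. The 8 were Serpina10, Serpina3a, Serpina5, Serpinb13, Serpinb9b, Serpinb9d, Serpind1 and Serpinf2, and the 3 were Serpina11, Serpina1e and Serpinb3a. Their fold changes and adjusted p are given as descriptions.

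**Figure D1:**
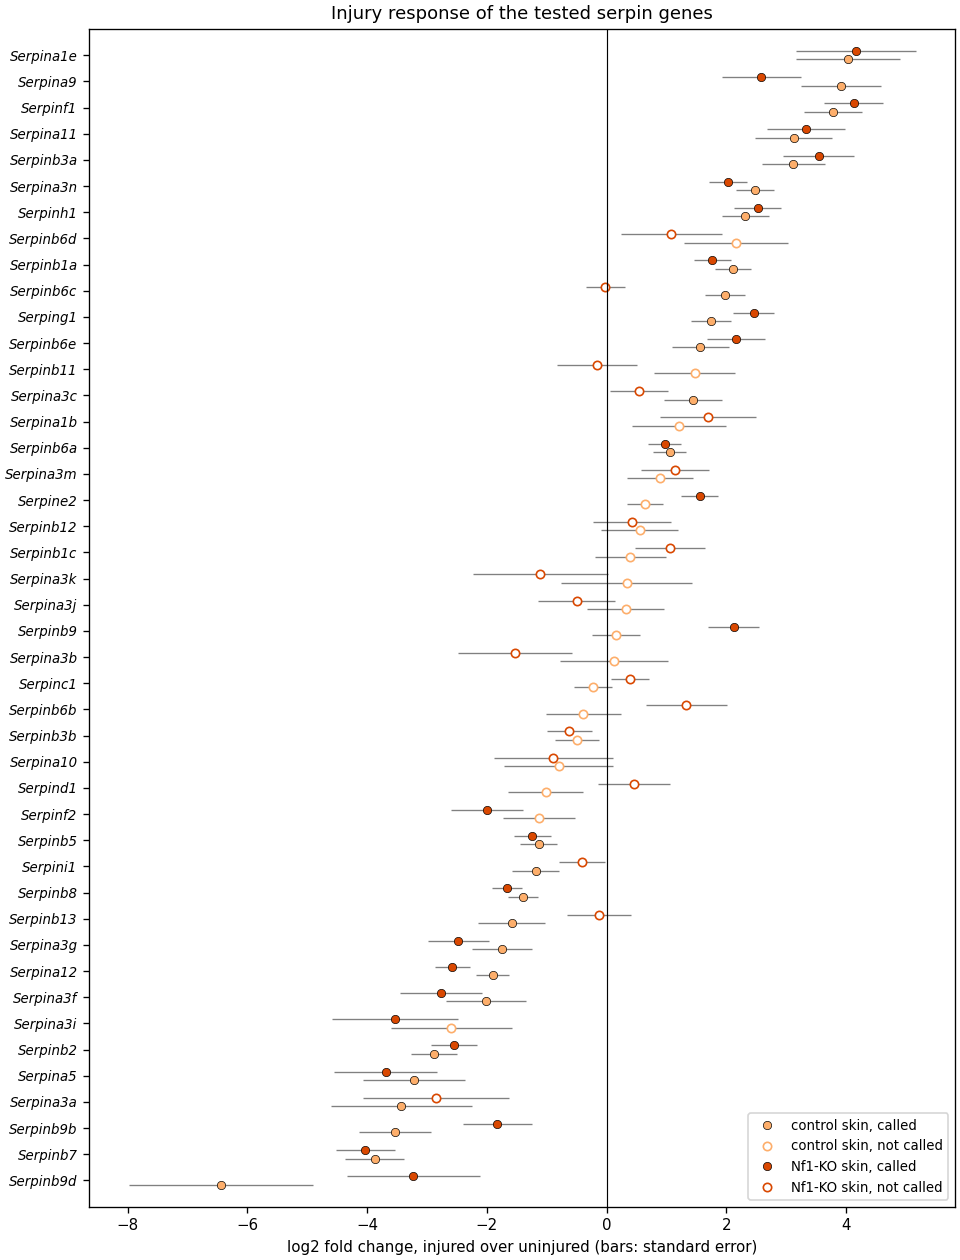
Log2 fold change of injured over uninjured skin (horizontal axis) for 44 of the tested serpin genes, ordered by their value in control skin; bars are standard errors, filled points were called at an adjusted p under 0.05 and open points were not. Serpinb7 and Serpinb2 lie far to the left and Serpinf1, Serpina3n and Serpinh1 far to the right in both genotypes, whereas Serpinb6c and Serpinb9 have points well apart.

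The order of the levels turned over with injury. Per kilobase of exon, the scale on which genes can be compared, control uninjured skin held most Serpinb5 (441 ± 89.5 CPM per kb, SD, n = 3), then Serpinb7 (302 ± 38.6), Serpinb2 (219 ± 109) and Serpina12 (127 ± 25.8). The SDs of Serpinb7 and Serpinb2 overlap, as do those of Serpinb2 and Serpina12. In control injured skin the first 3 places went to Serpinb5 (201 ± 50.3), Serpinh1 (179.8 ± 66.3) and Serpinf1 (104 ± 33.0), and each overlaps the next within its SD. In Nf1-KO injured skin Serpinh1 (218 ± 76.6), Serpinf1 (152 ± 76.7) and Serpinb5 (147 ± 76.0) all overlapped within their spread. Clade B made up 70.3 to 80.6% of the members' summed CPM per kb in the 6 uninjured libraries and 24.8 to 51.4% in the 6 injured, with no overlap. Serpinh1 and Serpinf1 together made up 2.67 to 6.18% and 28.0 to 55.2%. The summed level itself ran from 1008 to 1650 CPM per kb in uninjured and from 620 to 1173 in injured libraries, which overlap.

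**Figure D2:**
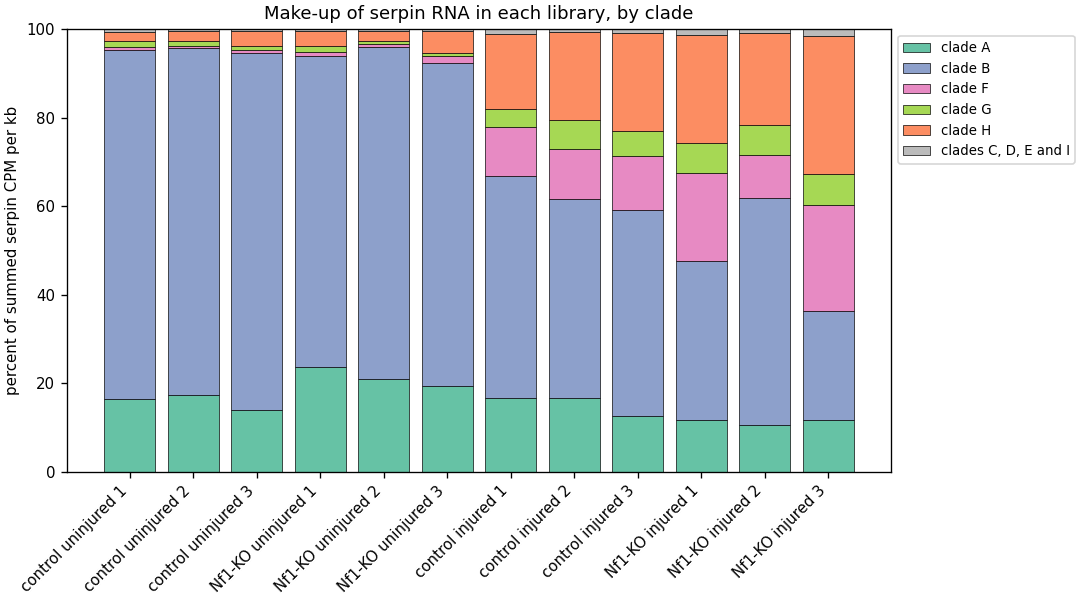
Share of each clade in the members' summed CPM per kb (vertical axis, percent) in each of the 12 libraries; each bar adds to 100. Clade B fills at least 70.3% of every uninjured bar, and clades F and H, which are thin there, widen in every injured bar.

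The sequence upstream of the start site is shown for the 3 members that fell most and the 3 that rose most in control skin among those called in both genotypes at 20 CPM or more on average, a choice made after their values were seen. They are shown so that the promoters of serpins that fell can be set beside those that rose. Each run is the 250 bases before the RefSeq start in the GRCm38.p6 build, on the strand of the gene and 5′ to 3′, and for Serpinf1 its first 172 bases, which end where an exon of another annotated start begins. Capitals mark matches, on either strand, to the TATA box (letters TATAAA), the GC box (letters GGGCGG), the AP-1 motif (letters TGANTCA), a pair of heat shock element units (letters GAANNTTC) or the STAT motif (letters TTCNNNGAA), where N is any base and matches may overlap. The positions are chr1:107422439-107422688 (plus strand) for Serpinb7, chr1:107511173-107511422 (plus) for Serpinb2, chr12:104044444-104044693 (minus) for Serpina12, chr11:75422702-75422873 (minus) for Serpinf1, chr12:104406458-104406707 (plus) for Serpina3n and chr7:99353240-99353489 (minus) for Serpinh1. The Serpinb7 start is the annotated internal one, 23034 bases after the first start of the gene.
Serpinb7: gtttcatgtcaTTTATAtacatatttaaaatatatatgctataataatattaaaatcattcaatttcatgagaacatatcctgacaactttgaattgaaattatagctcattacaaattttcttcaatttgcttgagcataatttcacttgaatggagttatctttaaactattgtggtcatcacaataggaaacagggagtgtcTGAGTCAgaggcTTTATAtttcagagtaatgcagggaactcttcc
Serpinb2: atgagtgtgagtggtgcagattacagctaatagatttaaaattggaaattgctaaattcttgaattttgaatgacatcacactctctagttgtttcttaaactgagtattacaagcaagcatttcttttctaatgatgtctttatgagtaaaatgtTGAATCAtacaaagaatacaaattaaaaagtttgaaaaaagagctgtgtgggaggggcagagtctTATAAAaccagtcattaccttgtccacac
Serpina12: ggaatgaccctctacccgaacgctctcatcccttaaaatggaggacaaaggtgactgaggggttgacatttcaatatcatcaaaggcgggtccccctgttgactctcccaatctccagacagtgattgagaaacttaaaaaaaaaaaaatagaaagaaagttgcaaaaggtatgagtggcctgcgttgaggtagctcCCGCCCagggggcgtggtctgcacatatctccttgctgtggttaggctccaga
Serpinf1: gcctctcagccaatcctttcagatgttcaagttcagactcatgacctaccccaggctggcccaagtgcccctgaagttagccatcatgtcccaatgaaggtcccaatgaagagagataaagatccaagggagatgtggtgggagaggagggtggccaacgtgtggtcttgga
Serpina3n: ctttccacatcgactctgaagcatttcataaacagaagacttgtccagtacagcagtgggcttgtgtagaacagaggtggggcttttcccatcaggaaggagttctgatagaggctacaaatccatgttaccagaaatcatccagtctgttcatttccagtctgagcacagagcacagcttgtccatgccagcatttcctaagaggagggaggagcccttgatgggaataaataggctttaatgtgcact
Serpinh1: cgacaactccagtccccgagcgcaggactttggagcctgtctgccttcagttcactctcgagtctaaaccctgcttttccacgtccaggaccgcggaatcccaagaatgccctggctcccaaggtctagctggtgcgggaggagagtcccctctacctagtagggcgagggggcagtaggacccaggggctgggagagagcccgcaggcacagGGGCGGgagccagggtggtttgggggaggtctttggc

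Of the 3 shown that fell, Serpinb7 and Serpinb2 each held a TATA box match near the start, beginning 33 and 29 bases before it, and an AP-1 motif match, beginning 45 and 94 bases before it. Serpinb7 had another TATA box match 239 bases before its start. The TATA box matches of Serpinb7 read TTTATA, so the letters TATAAA lie on the opposite strand, while that of Serpinb2 lies on the strand of the gene. Serpina12 and Serpinh1 held 1 GC box match each, beginning 53 and 37 bases before the start, and Serpinf1 and Serpina3n held a match to none of the 5 motifs in the window. Among 32851 RefSeq promoters of the same 250-base length, 12.4% held the TATA box, 32.7% the GC box, 6.75% the AP-1 motif, 6.69% the heat shock pair and 7.02% the STAT motif. The 60 listed promoters of 51 members held them in 17, 7, 10, 3 and 10 cases. A match is a run of letters and no measured site, and the absence of one says only that these letters are not in the window.

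Serpinb7, Serpinb2 and Serpinb8, neighbours in clade B, fell in both genotypes. Serpinb7 (megsin, chr1:107399655-107452689), an inhibitor made in the upper epidermis, stood at 517, 668 and 587 CPM in the control uninjured libraries, 458, 495 and 312 in the Nf1-KO uninjured, 19.5, 63.6 and 37.5 in the control injured and 16.9, 45.3 and 15.3 in the Nf1-KO injured. Every injured library lay far below every uninjured one. Its mean was lower by 14.7-fold in control and 16.3-fold in Nf1-KO skin, with log2 fold changes of -3.87 ± 0.49 (adjusted p = 8.05e-05) in control and -4.03 ± 0.49 (adjusted p = 6.30e-05) in Nf1-KO skin. Serpinb2 (chr1:107511423-107535478), the plasminogen activator inhibitor PAI-2 of keratinocytes and macrophages, was at 245, 547 and 753 CPM in the control uninjured libraries, 299.7, 317 and 197 in the Nf1-KO uninjured, 64.4, 83.7 and 60.7 in the control injured and 34.9, 68.6 and 35.7 in the Nf1-KO injured. The groups did not overlap, and library 1 of control uninjured skin was the lowest of its group. The log2 fold changes of Serpinb2 were -2.89 ± 0.38 (adjusted p = 6.51e-05) in control and -2.55 ± 0.38 (adjusted p = 1.62e-04) in Nf1-KO skin, a fall of 7.40-fold in control and 5.84-fold in Nf1-KO skin. Serpinb8 (chr1:107590006-107610484), an inhibitor of the proprotein convertase furin, was at 152, 211 and 256 CPM in the control uninjured libraries, 166, 166 and 164 in the Nf1-KO uninjured, 64.9, 83.6 and 87.0 in the control injured and 42.4, 74.8 and 40.1 in the Nf1-KO injured, again without overlap. It fell by 2.63-fold in control and 3.15-fold in Nf1-KO skin, with log2 fold changes of -1.39 ± 0.25 (adjusted p = 3.79e-04) in control and -1.66 ± 0.25 (adjusted p = 1.16e-04) in Nf1-KO skin.

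Serpinb5 (maspin, chr1:106861173-106883348) had the highest level of the family in uninjured skin and fell less steeply. It was at 1017, 1132 and 1489 CPM in the control uninjured libraries, 918, 959 and 987 in the Nf1-KO uninjured, 399, 666 and 596 in the control injured and 323, 642 and 248 in the Nf1-KO injured. All injured values lay below all uninjured values, and library 2 of Nf1-KO injured skin, like library 2 of control injured skin, was the highest of its group. Injury changed it by -1.13 ± 0.31 (adjusted p = 0.00607) in control and -1.24 ± 0.31 (adjusted p = 0.00599) in Nf1-KO skin on the log2 scale. With the ribosomal RNA-like share of each library as a covariate, the control value was -0.51 (adjusted p = 0.123) and no longer called. Basal keratinocyte markers moved with these genes: 7 of 8 fell in each genotype, their sum running from 15580 to 25490 CPM in uninjured and from 7771 to 14250 CPM in injured libraries, with none at 0. Of 10 markers of differentiating keratinocytes, 5 fell in control and 6 in Nf1-KO skin (sums of 25880 to 41780 and 11760 to 23820 CPM), whereas 6 of 10 markers of wound keratinocytes rose in each (sums of 904 to 3258 and 7418 to 18210 CPM). The part of these markers in the serpin changes was not tested.

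Other clade B genes of the same chromosome 1 cluster had other profiles. Serpinb3a (chr1:107045587-107052303), of the squamous cell carcinoma antigen type that inhibits cysteine cathepsins, was tested only because its injured values passed the filter. It was at 0.282, 0.767 and 1.20 CPM in the control uninjured libraries, 0.179, 0.306 and 0.452 in the Nf1-KO uninjured, 8.71, 6.52 and 5.14 in the control injured and 4.42, 5.01 and 1.72 in the Nf1-KO injured. Its lowest injured value lay above its highest uninjured one, and the log2 fold changes were 3.12 ± 0.53 (adjusted p = 2.63e-04) in control and 3.54 ± 0.59 (adjusted p = 2.84e-04) in Nf1-KO skin. Serpinb12 and Serpinb11, epidermal serpins, were not called: Serpinb12 averaged 46.5 CPM in control and 26.5 in Nf1-KO skin before injury and 68.3 and 35.5 after it. Serpinb11, in the same order, averaged 13.15, 23.3, 36.8 and 20.8 CPM. Its control groups did not overlap, with log2 fold changes of 1.47 (edgeR, adjusted p = 0.0896) in control and -0.16 (0.870) in Nf1-KO skin. Serpinb3b, in the same order, averaged 22.4, 14.2, 16.02 and 9.21 CPM and was not called.

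**Figure D3:**
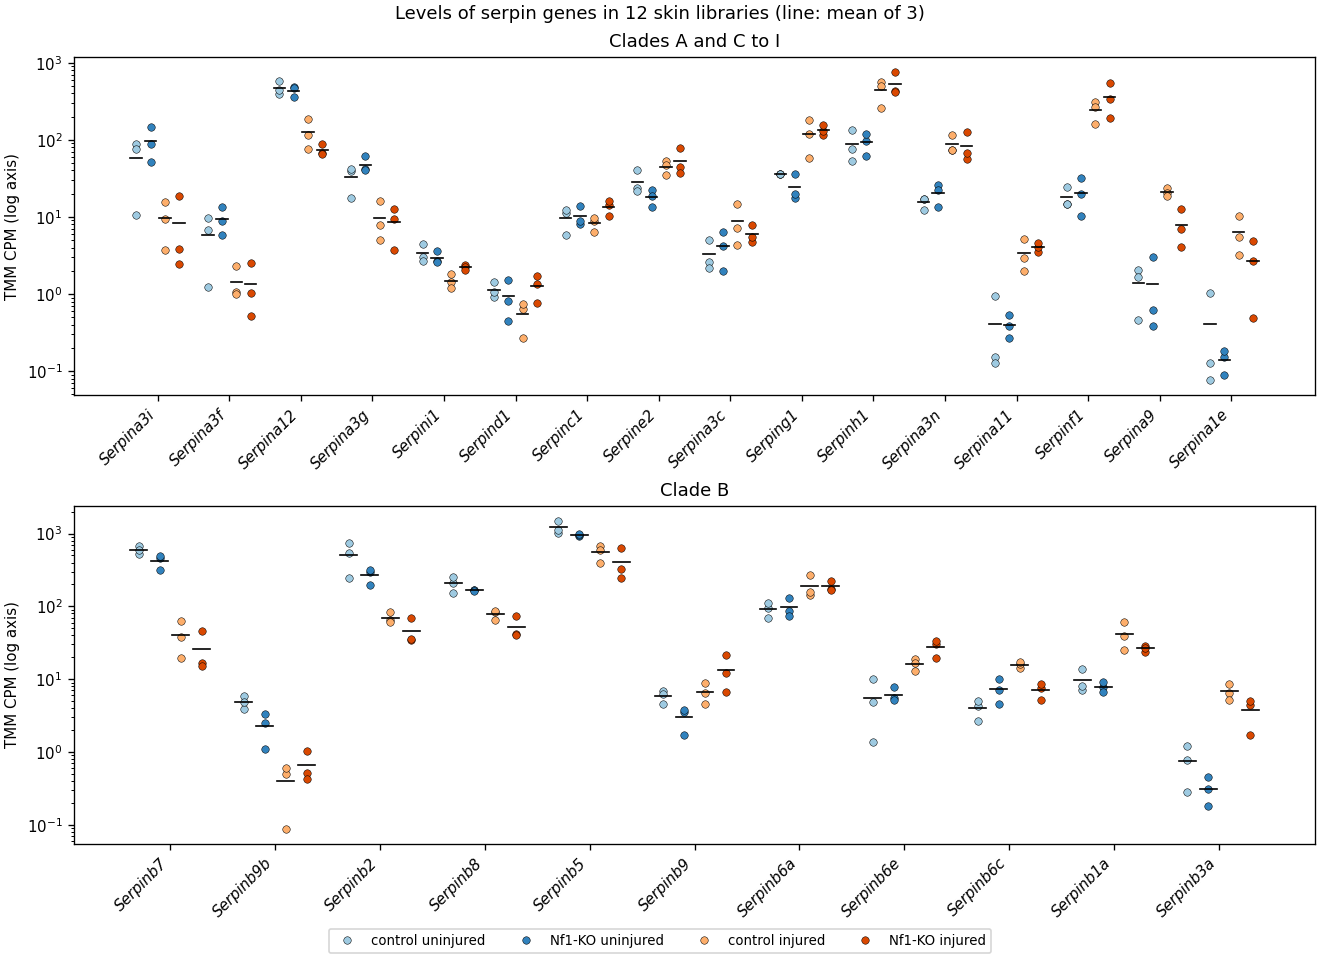
TMM-scaled CPM on a log axis in each of the 12 libraries (points, coloured by group; black lines are means of 3) for 27 members with a call and at least 2 CPM, or with the highest level per kb of their clade. In the lower panel Serpinb7, Serpinb9b and Serpinb2 show injured points far below the uninjured ones, and in the upper panel Serpinf1, Serpina9 and Serpina1e show the reverse.

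Serpinb1a and Serpinb6a, both inhibitors of cathepsin G, rose in both genotypes. Serpinb1a (chr13:32842092-32851185), an inhibitor of neutrophil elastase, cathepsin G and proteinase 3, was at 7.15, 8.06 and 13.6 CPM in the control uninjured libraries, 7.71, 6.59 and 9.03 in the Nf1-KO uninjured, 25.5, 60.7 and 38.9 in the control injured and 23.7, 28.8 and 26.9 in the Nf1-KO injured. The highest uninjured library stayed below the lowest injured one. It rose 4.34-fold in control and 3.40-fold in Nf1-KO skin, with log2 fold changes of 2.11 ± 0.30 (adjusted p = 7.43e-05) in control and 1.77 ± 0.30 (adjusted p = 3.57e-04) in Nf1-KO skin. Serpinb6a (chr13:33917918-34002794), which is widely expressed, was at 95.7, 69.7 and 112 CPM in the control uninjured libraries, 86.3, 72.8 and 131 in the Nf1-KO uninjured, 145, 273 and 157 in the control injured and 174, 169 and 225 in the Nf1-KO injured. The injured values were higher without overlap, by a smaller factor than for Serpinb1a, and the log2 fold changes were 1.05 ± 0.28 (adjusted p = 0.00457) in control and 0.97 ± 0.28 (adjusted p = 0.0123) in Nf1-KO skin. Without library 2 of Nf1-KO uninjured skin the latter was 0.78 (adjusted p = 0.0687), no longer called, and without libraries 1 and 2 of control uninjured skin the control value was 0.78 (0.168). Macrophage markers rose with them, 9 of 10 in control and 10 of 10 in Nf1-KO skin, from sums of 167 to 269 CPM to 528 to 2011 CPM with none at 0, as did mast cell markers, 8 and 7 of 8, from 13.3 to 33.2 CPM to 201 to 371 CPM. Of 8 neutrophil markers 6 were tested: 3 rose and 1, Mpo, fell in control skin, and 4 rose and 0 fell in Nf1-KO skin. S100a8 and S100a9 of this list are also among the wound keratinocyte markers. Ly6g, the defining surface marker of neutrophils, was at 0 in all injured libraries. The part of the macrophage, mast cell and neutrophil markers in the serpin changes was not tested.

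The Serpinb6 and Serpinb9 paralogs on chromosome 13 did not move as one. Serpinb6e (chr13:33832345-33843408) was at 4.89, 1.38 and 10.1 CPM in the control uninjured libraries, 7.79, 5.44 and 5.24 in the Nf1-KO uninjured, 19.0, 16.9 and 13.1 in the control injured and 30.1, 33.1 and 19.3 in the Nf1-KO injured. Its injured values were all higher than its uninjured ones, and library 2 of control uninjured skin was far below its group. On the log2 scale it changed by 1.56 ± 0.48 (adjusted p = 0.0139) in control and 2.16 ± 0.48 (adjusted p = 0.00418) in Nf1-KO skin. The control call was lost without libraries 1 and 2 of control uninjured skin (0.69, adjusted p = 0.199), with the ribosomal RNA-like covariate (1.67, 0.0597) and in a fit of the compared groups alone (1.55, 0.0566). Serpinb6c (chr13:33879816-33905708) was at 4.33, 2.69 and 5.05 CPM in the control uninjured libraries, 10.0, 4.60 and 7.14 in the Nf1-KO uninjured, 14.0, 16.1 and 17.3 in the control injured and 5.19, 7.69 and 8.61 in the Nf1-KO injured. In control skin the injured values were separate and higher, while in Nf1-KO skin both states covered the same range. Its log2 fold changes were 1.97 ± 0.33 (adjusted p = 2.47e-04) in control and -0.02 ± 0.32 (adjusted p = 0.969) in Nf1-KO skin. Serpinb6d averaged 4.95 CPM in control and 6.85 in Nf1-KO skin before injury and 22.2 and 14.4 after it, and was not called. How reads shared by these near-identical copies were assigned is not given in the sources used here, so the split among them is uncertain.

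Serpinb9 (chr13:33003250-33017957), the granzyme B inhibitor that protects cytotoxic cells and their neighbours, was at 4.61, 6.98 and 6.18 CPM in the control uninjured libraries, 3.58, 3.83 and 1.72 in the Nf1-KO uninjured, 4.62, 8.87 and 6.42 in the control injured and 12.1, 6.77 and 21.3 in the Nf1-KO injured. In control skin the states overlapped, and in Nf1-KO skin every injured value exceeded every uninjured one. Its log2 fold changes were 0.16 ± 0.40 (adjusted p = 0.749) in control and 2.12 ± 0.42 (adjusted p = 0.00114) in Nf1-KO skin. Its paralog Serpinb9b (chr13:33027416-33041884) passed the filter through the uninjured libraries alone. It was at 5.92, 3.91 and 4.92 CPM in the control uninjured libraries, 2.51, 3.29 and 1.08 in the Nf1-KO uninjured, 0.0889, 0.507 and 0.601 in the control injured and 0.513, 0.423 and 1.03 in the Nf1-KO injured. The injured values were the lower in both genotypes, all near 1 CPM or below. Serpinb9b had log2 fold changes of -3.54 ± 0.60 (adjusted p = 2.74e-04) in control and -1.82 ± 0.58 (adjusted p = 0.0217) in Nf1-KO skin. In Nf1-KO skin that call was lost without library 1 or 2 of the uninjured group (adjusted p = 0.0502 and 0.0971), without library 1 or 2 of the injured group (0.0779 and 0.0610), and with the ribosomal RNA-like covariate (0.156). Markers of T and NK cells, which make granzymes, were summed at 41.3 to 89.2 CPM in uninjured and 36.6 to 58.6 CPM in injured libraries, with 0 of 8 tested higher and 3 lower in each genotype.

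Among clade A genes, Serpina12 (vaspin, chr12:104028769-104044443), an inhibitor of kallikrein 7 made by keratinocytes and fat, had the highest level per kb in uninjured skin. After injury Serpina3n stood above it, at 42.3 ± 11.3 against 34.0 ± 14.7 CPM per kb in control and 40.6 ± 18.0 against 19.8 ± 3.28 in Nf1-KO skin (SD, n = 3), overlapping within the SDs in both. Serpina12 was at 388, 575 and 447 CPM in the control uninjured libraries, 485, 466 and 356 in the Nf1-KO uninjured, 77.0, 184 and 115 in the control injured and 67.0, 87.1 and 65.4 in the Nf1-KO injured. The states were separate in both genotypes. It fell by 3.74-fold in control and 5.95-fold in Nf1-KO skin, with log2 fold changes of -1.90 ± 0.28 (adjusted p = 9.79e-05) in control and -2.57 ± 0.29 (adjusted p = 7.22e-06) in Nf1-KO skin. Adipocyte markers moved the other way: 8 of 8 rose in control and 7 of 8 in Nf1-KO skin, from sums of 52.8 to 231 CPM to 864 to 1965 CPM.

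The Serpina3 family, mouse paralogs of the human antichymotrypsin gene, split. Serpina3n (chr12:104406729-104414329), an acute-phase inhibitor of cathepsin G, elastase and granzyme B, was at 12.4, 17.2 and 17.2 CPM in the control uninjured libraries, 26.0, 13.6 and 22.0 in the Nf1-KO uninjured, 73.0, 114 and 74.6 in the control injured and 56.8, 68.4 and 126 in the Nf1-KO injured. Its injured values were all well above the uninjured ones. The rise was 5.60-fold in control and 4.08-fold in Nf1-KO skin, with log2 fold changes of 2.48 ± 0.32 (adjusted p = 3.78e-05) in control and 2.03 ± 0.31 (adjusted p = 1.72e-04) in Nf1-KO skin. Serpina3g (chr12:104236245-104241939), an intracellular inhibitor of cysteine cathepsins, was at 17.8, 39.1 and 41.3 CPM in the control uninjured libraries, 60.9, 41.4 and 40.0 in the Nf1-KO uninjured, 5.07, 16.1 and 7.82 in the control injured and 3.72, 12.6 and 9.38 in the Nf1-KO injured. The injured values were the lower, without overlap, and the closest pair was 16.1 against 17.8 CPM. For Serpina3g the log2 fold changes were -1.75 ± 0.50 (adjusted p = 0.0115) in control and -2.48 ± 0.51 (adjusted p = 0.00344) in Nf1-KO skin. Without library 3 of control injured skin the control value was -1.56 (adjusted p = 0.0514), and with the ribosomal RNA-like covariate -1.10 (0.114).

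Serpina3i and Serpina3f, neighbours of Serpina3g, had similar profiles with wide spread. Serpina3i (chr12:104263122-104269372) was at 10.6, 89.3 and 76.2 CPM in the control uninjured libraries, 147, 88.8 and 51.4 in the Nf1-KO uninjured, 3.73, 15.8 and 9.49 in the control injured and 2.44, 18.6 and 3.79 in the Nf1-KO injured. Library 1 of control uninjured skin, at 10.6 CPM, lay within the injured range, and the Nf1-KO groups did not overlap. Serpina3i had log2 fold changes of -2.59 ± 1.01 (adjusted p = 0.0563) in control and -3.53 ± 1.05 (adjusted p = 0.0296) in Nf1-KO skin. The Nf1-KO call was lost without library 1 or 2 of Nf1-KO uninjured skin (adjusted p = 0.0751 and 0.0642), without library 1 or 3 of Nf1-KO injured skin (0.103 and 0.0752), without library 3 of control injured skin (0.0504) and with no filter (0.0555). Serpina3f (chr12:104214544-104221129) was at 1.22, 9.67 and 6.82 CPM in the control uninjured libraries, 13.3, 8.81 and 5.87 in the Nf1-KO uninjured, 1.07, 2.28 and 1.00 in the control injured and 0.513, 2.54 and 1.03 in the Nf1-KO injured. The same control library was low here too, so the control groups overlapped and the Nf1-KO groups did not. For Serpina3f they were -2.01 ± 0.67 (adjusted p = 0.0202) in control and -2.77 ± 0.68 (adjusted p = 0.00666) in Nf1-KO skin. Its control call was lost without library 2 or 3 of control uninjured skin (adjusted p = 0.0978 and 0.0594), without library 1 or 3 of control injured skin (0.0782 and 0.0816), in limma voom (0.0719) and with the ribosomal RNA-like covariate (0.284).

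Serpina3c (chr12:104146382-104153870) was at 5.08, 2.61 and 2.15 CPM in the control uninjured libraries, 6.36, 1.99 and 4.16 in the Nf1-KO uninjured, 4.35, 14.8 and 7.22 in the control injured and 7.76, 4.80 and 5.51 in the Nf1-KO injured. The states overlapped in both genotypes, with library 2 of control injured skin the highest of all. Its response on the log2 scale was 1.44 ± 0.49 (adjusted p = 0.0196) in control and 0.54 ± 0.48 (adjusted p = 0.388) in Nf1-KO skin. The control call was lost without library 2 of control injured skin (0.89, adjusted p = 0.130) and without library 2, library 3 or libraries 1 and 2 of control uninjured skin (0.0709, 0.0605 and 0.0661). The tested Serpina3 genes without a call were Serpina3b, Serpina3j, Serpina3m and Serpina3k, with control log2 fold changes of 0.12, 0.32, 0.89 and 0.34. Serpina3k averaged 0.457 CPM in control and 0.690 in Nf1-KO uninjured skin, about the level of its receptor background there (0.193 to 0.677). Serpina3k and Serpina3m overlap in the annotation, so the split of counts between them is uncertain.

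Of 3 clade A neighbours with low uninjured levels, Serpina9, Serpina11 and Serpina1e, the first passed the filter in both states and the other two through the injured libraries alone. Serpina9 (chr12:103994743-104013755), known from germinal centre B cells, was at 2.07, 0.461 and 1.64 CPM in the control uninjured libraries, 0.627, 0.383 and 2.98 in the Nf1-KO uninjured, 23.5, 20.4 and 18.8 in the control injured and 12.6, 4.09 and 6.97 in the Nf1-KO injured. The injured values were above all uninjured ones, and those of control skin were the higher. It rose 15.0-fold in control and 5.92-fold in Nf1-KO skin, with log2 fold changes of 3.91 ± 0.66 (adjusted p = 5.05e-04) in control and 2.58 ± 0.66 (adjusted p = 0.00894) in Nf1-KO skin. Its neighbour Serpina11 (chr12:103980243-103989957), a gene of little known function, was at 0.941, 0.153 and 0.126 CPM in the control uninjured libraries, 0.269, 0.383 and 0.542 in the Nf1-KO uninjured, 2.93, 1.96 and 5.21 in the control injured and 3.53, 4.09 and 4.65 in the Nf1-KO injured. No uninjured library reached 1 CPM and every injured one exceeded it. Its log2 fold changes were 3.12 ± 0.65 (adjusted p = 0.00101) in control and 3.33 ± 0.65 (adjusted p = 9.67e-04) in Nf1-KO skin. Serpina1e (chr12:103946931-103958975), an antitrypsin copy, was at 1.03, 0.0767 and 0.126 CPM in the control uninjured libraries, 0.0896, 0.153 and 0.181 in the Nf1-KO uninjured, 10.4, 3.17 and 5.55 in the control injured and 4.87, 0.494 and 2.67 in the Nf1-KO injured. Library 1 of control uninjured skin stood above its group, and library 2 of Nf1-KO injured skin below its own. The log2 fold changes were 4.03 ± 0.87 (adjusted p = 0.00162) in control and 4.16 ± 1.00 (adjusted p = 0.00536) in Nf1-KO skin. Liver makes most antitrypsin, and of 12 hepatocyte markers 5 were tested, of which 1 rose and 2 fell in control and 1 rose in Nf1-KO skin; Fga was at 0 in control injured and Fgg at 0 in Nf1-KO injured libraries. Other antitrypsin copies are near-identical, and Serpina1b spans Serpina1d in the annotation, so the split of antitrypsin counts is uncertain.

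The matrix-related and secreted serpins Serpinh1, Serpinf1 and Serping1, of clades H, F and G, rose to high levels. Serpinh1 (Hsp47, chr7:99345376-99353239), the chaperone that folds collagen, was at 53.4, 75.7 and 136 CPM in the control uninjured libraries, 96.0, 62.4 and 119.6 in the Nf1-KO uninjured, 257, 566 and 495 in the control injured and 428, 421 and 748 in the Nf1-KO injured. The lowest injured value was above the highest uninjured one, and library 3 was the highest of both Nf1-KO groups. It rose 4.97-fold in control and 5.75-fold in Nf1-KO skin, with log2 fold changes of 2.31 ± 0.39 (adjusted p = 3.88e-04) in control and 2.52 ± 0.40 (adjusted p = 2.66e-04) in Nf1-KO skin. Serpinf1 (PEDF, chr11:75409769-75422701), a secreted factor that restrains vessel growth, was at 14.8, 14.7 and 24.2 CPM in the control uninjured libraries, 19.8, 10.3 and 31.5 in the Nf1-KO uninjured, 161, 314 and 263 in the control injured and 337, 190.1 and 550.1 in the Nf1-KO injured. The states were far apart. The rise was 13.8-fold in control and 17.5-fold in Nf1-KO skin, with log2 fold changes of 3.78 ± 0.49 (adjusted p = 1.11e-04) in control and 4.13 ± 0.49 (adjusted p = 6.47e-05) in Nf1-KO skin. Serping1 (chr2:84765387-84775444), the inhibitor of complement C1 and plasma kallikrein, was at 35.5, 35.7 and 36.0 CPM in the control uninjured libraries, 35.6, 17.8 and 19.7 in the Nf1-KO uninjured, 58.7, 181 and 118 in the control injured and 116, 129 and 155 in the Nf1-KO injured. The control uninjured libraries were nearly equal, and control injured library 1 was the lowest injured value but above them. The log2 fold changes were 1.74 ± 0.34 (adjusted p = 8.74e-04) in control and 2.45 ± 0.35 (adjusted p = 1.08e-04) in Nf1-KO skin. Without libraries 1 and 2 of control uninjured skin the control value was 1.74 (adjusted p = 0.0530), no longer called.

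Fibroblast markers moved with these genes: 8 of 8 rose in each genotype, from sums of 646 to 2436 CPM to 3678 to 11100 CPM, with none at 0. Of 18 collagen genes whose chains are clients of Hsp47, 14 rose and 1 fell in control and 16 rose and 1 fell in Nf1-KO skin, with medians of 2.84 and 3.04. Among them Col4a2 and Col4a1, the chains of basement membrane collagen, had control log2 fold changes of 2.49 (adjusted p = 6.63e-06) and 2.57 (9.98e-06), and the one that fell was Col17a1, the transmembrane collagen of basal keratinocytes, at -2.48 (1.10e-05). The part of fibroblast number in the rise of Serpinh1 and Serpinf1 was not tested.

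In clade E, the inhibitor Serpine2 was called after injury in 1 genotype. Serpine2 (protease nexin-1, chr1:79794197-79861180), an inhibitor of thrombin and urokinase, was at 23.7, 21.6 and 40.8 CPM in the control uninjured libraries, 22.1, 18.7 and 13.5 in the Nf1-KO uninjured, 34.9, 52.4 and 47.2 in the control injured and 44.0, 37.0 and 79.0 in the Nf1-KO injured. In control skin the states overlapped, since library 3 of the uninjured group exceeded the lowest injured value, and in Nf1-KO skin they were separate. Its log2 fold changes were 0.64 ± 0.30 (adjusted p = 0.0837) in control and 1.56 ± 0.31 (adjusted p = 0.00138) in Nf1-KO skin. Serpine3 was not tested.

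Of the clotting and neuronal serpins of clades C, D and I, 1 was called, and in 1 genotype. Serpinc1 (antithrombin, chr1:160978585-161005863) was at 11.1, 12.4 and 5.74 CPM in the control uninjured libraries, 8.06, 8.81 and 14.0 in the Nf1-KO uninjured, 8.80, 6.33 and 9.76 in the control injured and 14.2, 10.2 and 15.9 in the Nf1-KO injured. The states overlapped in both genotypes, and the log2 fold changes were -0.23 ± 0.32 (adjusted p = 0.562) in control and 0.38 ± 0.32 (adjusted p = 0.349) in Nf1-KO skin. Serpind1 (heparin cofactor II, chr16:17331371-17343575), the only member of clade D, was at 1.41, 0.921 and 1.07 CPM in the control uninjured libraries, 0.806, 1.53 and 0.452 in the Nf1-KO uninjured, 0.267, 0.633 and 0.735 in the control injured and 1.73, 1.34 and 0.774 in the Nf1-KO injured, with -1.01 ± 0.63 (adjusted p = 0.180) in control and 0.46 ± 0.60 (adjusted p = 0.568) in Nf1-KO skin. Serpini1 (neuroserpin, chr3:75557547-75643495), an inhibitor of tissue plasminogen activator made by neurons, was at 4.51, 2.99 and 2.65 CPM in the control uninjured libraries, 2.69, 3.60 and 2.62 in the Nf1-KO uninjured, 1.42, 1.20 and 1.80 in the control injured and 2.37, 2.26 and 2.06 in the Nf1-KO injured. The control groups were separate by a small margin, and the Nf1-KO groups too. Its log2 fold changes were -1.19 ± 0.39 (adjusted p = 0.0169) in control and -0.41 ± 0.38 (adjusted p = 0.405) in Nf1-KO skin. The control call was lost without library 1 of control uninjured skin (-0.84, adjusted p = 0.108), without library 2 of control injured skin (-1.002, 0.0720), with the receptor background subtracted (-0.58, 0.264), with no filter (-0.998, 0.104), with the ribosomal RNA-like covariate (-1.15, 0.0604) and without libraries 1 and 2 of control uninjured skin (-0.84, 0.239). Of 10 Schwann cell markers, 1 rose and 5 fell in control skin and 2 rose and 3 fell in Nf1-KO skin. Of 10 sensory neuron and axon markers 8 were tested, of which 2 rose and 2 fell in each genotype.

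The other 5 members with a call averaged under 2 CPM and were named because they are few, after their values were seen. All were lower after injury: Serpina5, the protein C inhibitor, in both genotypes (log2 fold changes of -3.21 ± 0.85 (adjusted p = 0.00484) in control and -3.69 ± 0.86 (adjusted p = 0.00378) in Nf1-KO skin), Serpinb13, a cathepsin inhibitor of keratinocytes, in control skin (-1.58 ± 0.56 (adjusted p = 0.0240)), Serpinf2, the plasmin inhibitor, in Nf1-KO skin (-1.999, adjusted p = 0.0169), Serpina3a in control skin, and Serpinb9d in both. Serpina3a had 22 counts in all 3 control uninjured libraries together and 2 in the injured, a ratio of 11.7 (95% interval for counting error 2.88 to 103). Serpinb9d had 31 and 0 counts, so it was at least 10.99-fold lower, taking 3 counts over the group as the floor. All 5 passed the filter through the uninjured libraries alone, which carry the higher receptor background. Serpina3a, Serpinb13, Serpinb9d and Serpinf2 each lost a call when 1 library was left out: Serpina3a without library 1 or 2 of control uninjured (adjusted p = 0.0845 and 0.0600) or 1 or 3 of control injured skin (0.0598 and 0.0741), Serpinb13 without library 1 or 3 of control uninjured (0.0528 and 0.0798) or any 1 of control injured skin (0.0502, 0.0678 and 0.0685), Serpinf2 without library 2 of Nf1-KO uninjured or 1 of Nf1-KO injured skin (0.0683 and 0.0697), and Serpinb9d, in Nf1-KO skin, without library 2 of control uninjured (0.0562), 2 or 3 of Nf1-KO uninjured (0.0860 and 0.0903) or 1 or 2 of Nf1-KO injured skin (0.0977 and 0.0875). Without libraries 1 and 2 of control uninjured skin the control calls of Serpina5 (0.0560), Serpina3a (0.435), Serpinb13 (0.0766) and Serpinb9d (0.0584) were lost, as was the Nf1-KO call of Serpinb9d (0.0663). The ribosomal RNA-like covariate ended those of Serpina3a (0.198), Serpinb13 (0.166) and Serpinf2 (0.0610), and no filter that of Serpinb13 (0.0595).

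The 15 members that failed the filter were Serpina16, Serpina1a, Serpina1d, Serpina1f, Serpina6, Serpina7, Serpinb1b, Serpinb3c, Serpinb3d, Serpinb9c, Serpinb9e, Serpinb9f, Serpinb9g, Serpine3 and Serpini2. They had 13 to 58 counts each over the 12 libraries and averaged 0.0964 to 0.377 CPM. For 14 of the 15 the mean was higher in uninjured libraries. The receptor background of those libraries would give a gene of each length a range of levels. For 14 of the 15 the uninjured mean lay at or below the upper end of that range.

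Most members lie in 3 clusters, and each held members called higher and members called lower. The shares of all genes called were 22.8% higher and 32.5% lower in control and 19.1% and 18.4% in Nf1-KO skin, and with 9 to 17 tested genes a cluster, nothing particular to a cluster is read from its counts. On chromosome 1, 11 clade B genes span chr1:106861173-107610484, of which 9 were tested: 1 rose and 5 fell in control and 1 rose and 4 fell in Nf1-KO skin, the higher one being Serpinb3a. On chromosome 12, 22 clade A genes span chr12:103614786-104414329, of which 17 were tested: 5 rose and 5 fell in control and 4 rose and 5 fell in Nf1-KO skin. There Serpina1e, Serpina11 and Serpina9, called higher, adjoin Serpina12 and Serpina5, called lower, and Serpina3n, called higher, closes the row. On chromosome 13, 15 clade B genes span chr13:32842092-34002794, of which 10 were tested: 4 rose and 2 fell in each genotype, with Serpinb9b and Serpinb9d as the lower ones. Serpinb3a on chromosome 1 and Serpinb9b and Serpinb9d on chromosome 13 were tested only through the state in which they are high, so calls in both directions there rest on the filter. On chromosome 12, Serpina9 and Serpina3n (higher) and Serpina12, Serpina3g and Serpina3f (lower) passed it in both states.

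**Figure D4:**
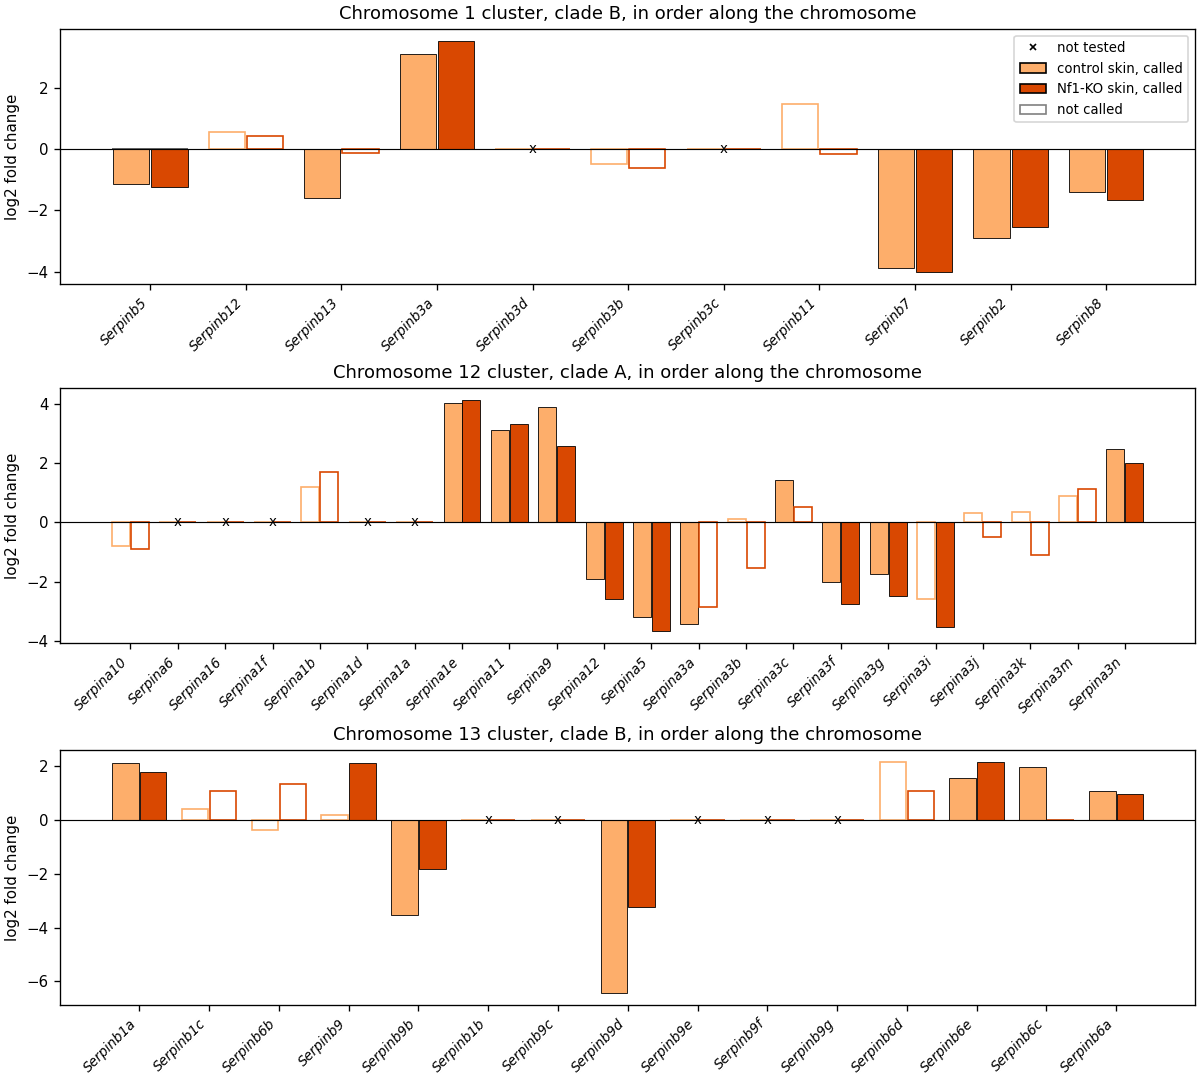
Log2 fold change of injured over uninjured skin (vertical axis) for each gene of the 3 clusters, in order along the chromosome; filled bars were called, open bars were not, and x marks genes that were not tested. Runs of neighbours with the same sign, such as Serpinb7, Serpinb2 and Serpinb8 or Serpina1e, Serpina11 and Serpina9, lie beside genes of the other sign; the bar of Serpinb9d in control skin rests on a group at 0 counts and is not a measured size.

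The proteases that serpins bind were read from lists. Of 17 tested genes of clotting and plasminogen activation, 5 rose and 3 fell in control (median 0.50) and 8 rose and 2 fell in Nf1-KO skin (median 1.56), beside the all-gene values given above. Tissue factor, F3, the trigger of clotting, had a control log2 fold change of -2.67 (adjusted p = 3.07e-06), while Plat, the tissue plasminogen activator, was at 2.36 (1.79e-05) and Procr, the protein C receptor, at 4.40 (0.000102). Of 9 tested genes for granule proteins of neutrophils, mast cells and cytotoxic cells, 7 rose and 2 fell in control skin. In Nf1-KO skin 6 rose and 1 fell (medians 3.12 and 3.13). Those that fell encode no protease: perforin, Prf1, in both genotypes (-2.20 in control and -2.81 in Nf1-KO skin) and the peroxidase Mpo in control skin (-2.93). The leading ones in control skin were the mast cell proteases Tpsb2 (5.77, adjusted p = 3.50e-06) and Cma1 (5.03, 3.78e-05) and the granzyme Gzmc (3.12, 4.81e-05), which was at 0.27 (0.608) in Nf1-KO skin.

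Of 10 cysteine cathepsins, a class that holds targets of Serpinb3a and Serpina3g, 6 rose in each genotype and 1 fell in control skin (medians 1.02 and 1.05). Which of the 10 these serpins inhibit was not examined. Ctsz, Ctsc and Ctss, lysosomal enzymes of leukocytes among other cells, had control log2 fold changes of 3.16 (adjusted p = 6.73e-06), 1.54 (0.000292) and 2.07 (0.000596). Of 16 epidermal serine proteases, which Serpina12 and Serpinb7 are known to act on in part, 7 rose and 1 fell in control and 4 rose and 5 fell in Nf1-KO skin (medians 0.31 and 0.05). Klk10, Klk13 and Klk12, kallikrein-related peptidases, were at 3.90 (0.000107), 4.67 (0.000635) and 3.15 (0.000675) in control skin. Of 9 tested proteases of the complement system, 5 rose in each genotype and 1 fell in control skin (medians 1.02 and 1.54). Those with the smallest p were the Serping1 targets C1s1 (3.24, 1.51e-06) and C1ra (3.02, 2.13e-06), and Cfb (1.66, 0.00142). Among 10 receptors and partners that take up serpin complexes, 3 rose and 1 fell in control and 2 rose and 1 fell in Nf1-KO skin (medians 0.00 and 0.28): Lrp1, the main clearance receptor, was at 1.38 (0.000194), its relative Lrp2 at -3.95 (0.000209) and Pnpla2, a binding partner of PEDF, at 1.05 (0.00486) in control skin.

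Genotype moved no member past the threshold. In uninjured skin 0 of 45 were called (edgeR), beside 0.0296% of all genes, 5 had an unadjusted p under 0.05, and the smallest adjusted p was 0.543; limma voom and DESeq2 called 0. In injured skin 0 of 45 were called (edgeR), beside 0% of all genes, 8 had an unadjusted p under 0.05, and the smallest adjusted p was 0.355. There limma voom called 0 members, and DESeq2 called 1, Serpinb6c, beside 124 of 49676 genes. The 2 genotype comparisons share no library with each other. The smallest p among those 8 was that of Serpinb6c, with a log2 difference between Nf1-KO and control injured skin of -1.15 ± 0.32 (adjusted p = 0.355), or -1.26 in DESeq2 (adjusted p = 0.0337), and Serpinb9 was at 1.00 ± 0.40 (adjusted p = 0.393).

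The injury responses of the 2 genotypes were compared directly as a difference of differences. Over all genes 0% were called, and 0 of the 45 members (edgeR). At an unadjusted p under 0.05 stood 3 members, Serpinb6c, Serpinb9 and Serpine2, with differences in log2 fold change of -1.99 ± 0.46 (adjusted p = 0.442), 1.96 ± 0.58 (adjusted p = 0.442) and 0.91 ± 0.43 (adjusted p = 0.465). The per-library values given above show the shape: Serpinb6c was higher after injury in control skin and level in Nf1-KO skin, and Serpinb9 was level in control skin and higher in Nf1-KO skin. The Serpinb6c difference was called in DESeq2 (-2.05, adjusted p = 0.0125) and in edgeR with no filter (-2.14, 0.00356), and the Serpinb9 difference with no filter (1.80, 0.0499). Over all genes, DESeq2 called 37 and edgeR with no filter 236 of 49676. For the other 6 members called in 1 genotype alone, Serpina3a, Serpina3c, Serpina3i, Serpinb13, Serpinf2 and Serpini1, the difference did not reach an unadjusted p under 0.05, so a response in 1 genotype alone was not shown. These misses do not show that the responses were alike.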

How the data were processed

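RNA-seq read counts of 12 whole-skin libraries were analysed. Per the labels' protocols, cDNA was amplified by Smart-Seq v4 and libraries were built with Nextera XT, which does not mark strand, so overlapping genes cannot be told apart. The values are raw counts per Ensembl gene as the authors deposited them, with no normalization seen in them. The submitters' processing notes name the build mm10 and the tools HTSeq 0.5.3, STAR 2.5.2b, HOMER, DESeq2 and SAMtools, with no role for any. For the annotation and for reads shared by paralogs, the setting is not given in the sources used here. Of 53379 identifiers, 53274 matched GENCODE M21. One column that matches no listed sample was left out (1 unused column).

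Levels are TMM-scaled CPM, and CPM per kb divides by exonic length. Genes passing filterByExpr (minimum count 10) were fitted in R 4.3.3 with edgeR 4.0.16 (robust quasi-likelihood, 4 group means, 12 libraries), and p-values were adjusted by Benjamini-Hochberg over all 23635 genes. Calls are at an adjusted p under 0.05, and errors of log2 fold changes are standard errors. The fit was tested on simulated counts. Alternatives were DESeq2 1.42.0, voom in limma 3.58.1, median-of-ratios scaling, dropping the filter or raising it to 2 CPM in 3 libraries, a block for the replicate number, subtraction of the receptor background, a covariate for the share of ribosomal RNA-like counts, fits of the compared groups alone, and libraries left out. Library pairs of a group differed beyond sampling noise (chi-square per degree of freedom 9.55 to 87.8). Intervals of count ratios are exact binomial and cover counting error only, since the libraries carry no molecular identifiers.

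The members, gene lists and tests were chosen with earlier results of these data known. Members get per-library values where they were called and averaged at least 2 CPM, or had the highest level per kb of their clade, which gave 28, of which 27 are printed. The values of 1 member are not reported here; counts over all members include it. Of each list, up to 3 called genes with the smallest p in control skin are named.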

Additional observations from a re-analysis of the deposited data

How the results depend on the processing

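No result reversed its direction under any alternative run. Of the 53 calls of members, 35 held under all alternatives that could test them and 18 were lost in at least 1, at adjusted p from just above the threshold to 0.435. The members higher in control skin numbered 14, but 9 when libraries 1 and 2 of control uninjured skin were left out together. The lower ones numbered 13, but 7 with the ribosomal RNA-like covariate, beside 7679 and 6173 of 23635 genes lower in those fits. DESeq2, fitted to all 60 members, gave 14 higher and 20 lower, beside 5239 and 12332 of 49676 genes. With no filter, edgeR also tested all 60 and gave 16 higher and 18 lower, beside 6453 and 12865 of 49676 genes. The causes of these changes were not tested. For genotype in uninjured skin, where 0 were called, no filter gave 1 lower (Serpinb2), beside 219 of 49676 genes called. In injured skin no filter gave 3 lower (Serpina9, Serpina12 and Serpinb6c) and DESeq2 1, beside 410 and 124 of 49676 genes called. For the difference between the injury responses no filter gave 1 higher and 1 lower, beside 236 of 49676 genes called. DESeq2 gave 1 lower, beside 37 of 49676 genes called. Leaving out 1 library at a time gave 13 to 16 higher and 11 to 16 lower members in control skin and 13 to 15 higher and 8 to 12 lower in Nf1-KO skin.

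The replicate number as a replicate block gave 15 higher and 13 lower in control and 14 higher and 11 lower in Nf1-KO skin, and of 55 values it changed the call of 1, Serpinb9d in Nf1-KO skin (adjusted p = 0.0620). Same-numbered libraries correlated between -0.11 and 0.37, and some but not all libraries correlated best with their own number. With 3 libraries a group, these values cannot decide whether the numbers pair the libraries. Median-of-ratios scaling shifted all log2 values of the Nf1-KO injury comparison by -0.11 and changed the call of none of the 55 values compared.

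Depth limits the members under about 2 CPM, whose counts per library are few and whose levels in uninjured libraries approach the receptor background. The design holds 3 libraries a group, and injury cannot be told apart from sex.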

Other observations

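Protease inhibitors outside the serpin family rose with injury more often than they fell. Of 20 such genes, all tested, 13 rose and 3 fell in control skin (median log2 fold change 1.86) and 9 rose and 3 fell in Nf1-KO skin (median 1.48), beside the all-gene medians of -0.21 and -0.09. Over all genes tested, 22.8% were called higher and 32.5% lower in control skin, and 19.1% and 18.4% in Nf1-KO skin. Pi16, a peptidase inhibitor by name, averaged 5.06 ± 1.91 CPM in control uninjured and 80.7 ± 14.1 CPM in control injured skin (SD, n = 3; edgeR, adjusted p = 9.70e-07). In Nf1-KO skin its log2 fold change was 4.49 (edgeR, adjusted p = 3.72e-07). Pi15, likewise named as a peptidase inhibitor, averaged 7.64 ± 0.762 CPM before and 52.0 ± 16.9 CPM after injury in control skin, with log2 fold changes of 2.76 (edgeR, adjusted p = 9.97e-06) in control and 3.17 (2.59e-06) in Nf1-KO skin. Cstb, the intracellular inhibitor of cysteine cathepsins, averaged 183 ± 42.8 CPM before and 941 ± 263 CPM after injury in control skin, with log2 fold changes of 2.36 (edgeR, adjusted p = 7.80e-05) in control and 1.36 (0.00477) in Nf1-KO skin. The list was chosen with earlier results of these data known. Fibroblast markers, 8 of 8 in each genotype, and macrophage markers, 9 and 10 of 10, rose in the same libraries, and their part in these changes was not tested.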
